A study of Mus musculus with 10 samples.

Results

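Immature granulocytes at postnatal day 18 (P18) were the cells of the whole-enthesis P18 library selected on 7 genes. A cell was taken if it had at least 500 detected genes and at most 10% of its counts in mitochondrial genes, at most 2 unique molecular identifiers (UMIs, counted molecules) of Retnlg, and either at least 10 UMIs of Ngp or at least 3 UMIs of Mpo or Elane, with 0 UMIs of Cd79a, C1qa and Col1a2. The rule took 246 of the 5396 P18 cells that passed the 2 cell filters, or 4.56% (exact Clopper-Pearson 95% interval 4.02 to 5.15). It took 1 of 2952 cells at P11 and 0 of 5131 cells at P56, where the upper limit of the same kind of interval was 0.0719%. The 3 droplet libraries held 13479 such cells in all.

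The enthesis is the tissue that joins tendon to bone, here that of the supraspinatus tendon of the mouse shoulder. The droplet libraries came from wild-type C57BL/6 mice at P11, P18 and P56, and the dissected entheses were pooled, freed of red cells and sorted for cells that carried neither the leukocyte protein Cd45 nor the dead-cell dye DAPI. Another 7 libraries were 96-well plates from Gli1CreERT;Ai14 mice of 7 ages between P7 and P42. These animals had received tamoxifen at P5 and P7, which marks cells expressing Gli1, and the cells descended from them, with a red fluorescent protein. Each age was 1 library made from pooled tissue, so no difference between ages or between cell groups below could be tested against variation between mice, and every interval covers counting error only.

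Neutrophils are made in the bone marrow from dividing progenitors. Promyelocytes fill the primary (azurophil) granules with myeloperoxidase and serine proteases, and myelocytes and metamyelocytes fill the secondary (specific) granules with proteins such as lactoferrin, cathelicidin and lipocalin 2. Gelatinase granules and chemokine receptors follow after division has stopped, when the cells leave the marrow. The factor C/EBP epsilon (Cebpe) is needed for the secondary granule genes, and PU.1 (Spi1) acts across the myeloid lineage.

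The members fell into 3 groups by the rule's own genes. The 87 cells with Mpo or Elane but under 10 UMIs of Ngp are called the Mpo/Elane stage, the 115 cells with Ngp but under 3 UMIs of Mpo and of Elane the Ngp stage, and the 44 cells that met both conditions the overlap. Because these genes chose the cells, their levels are a description. Ngp ran from 0 to 9 UMIs per cell with a median of 0 in the Mpo/Elane stage, from 10 to 1899 with a median of 331 in the overlap, and from 52 to 2561 with a median of 688 in the Ngp stage. The larger of the Mpo and Elane counts ran from 3 to 783 UMIs with a median of 107, from 3 to 715 with a median of 223.5, and from 0 to 2 with a median of 0. By the median the overlap was thus between the stages in Ngp and above both in Mpo or Elane, all of it within limits that the rule set.

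**Figure D1:**
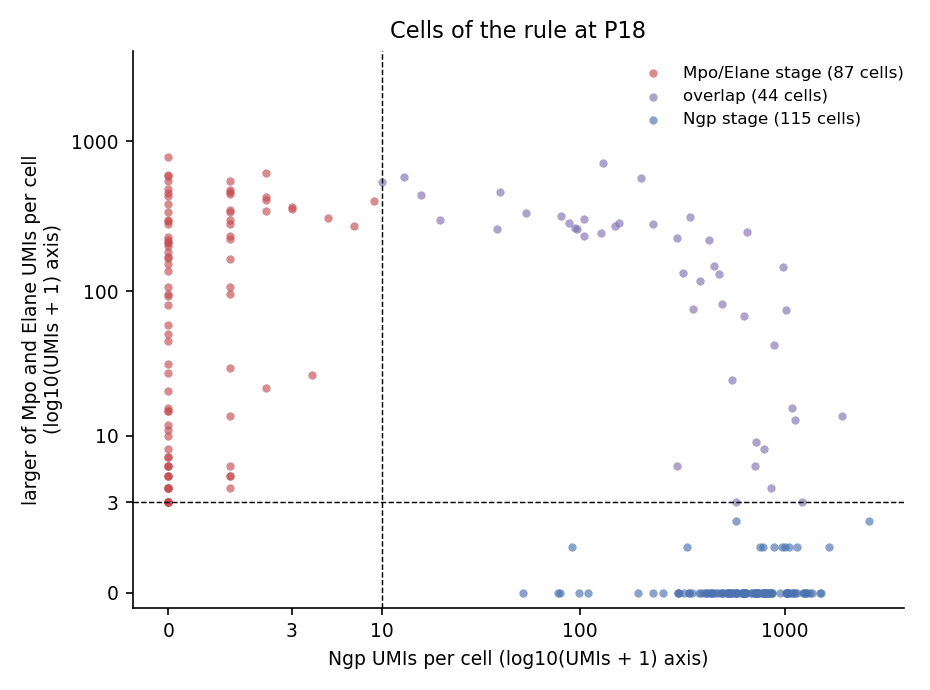
Each point is 1 of the 246 cells, with its Ngp UMIs on the horizontal axis and the larger of its Mpo and Elane UMIs on the vertical axis, both as log10(UMIs + 1); dashed lines mark the rule's minimums of 10 and 3. The lowest Ngp count in the 115 cells of the Ngp stage was 52, well above the line, while cells of the Mpo/Elane stage reach down to the line at 3.

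The edges of the rule differed in sharpness. Among cells that did not meet the Mpo and Elane condition, none lay between 10 and 14 Ngp UMIs just inside the Ngp limit. None lay between 5 and 9 just outside it. Between the Mpo/Elane stage and the overlap the same limit had no gap, as Ngp reached 9 UMIs in the former and began at 10 in the latter. The Mpo and Elane condition had 16 cells just inside, with a maximum of 3 to 5 UMIs, and 40 cells just outside, with 1 to 2; Mpo stood at 216 and 47.4 CPM (UMIs of the gene per 1000000 UMIs) in them, and S100a8 at 3899 and 2630 CPM. At the Retnlg limit, the 57 cells of the Ngp stage with 1 to 2 UMIs and the 32 like cells with 3 to 5 UMIs that were left out had 46869 and 49754 CPM of Ngp, and Mmp8 stood at 126 and 195 CPM. The exclusion genes removed 101 of the 347 cells that met the other conditions, 73 through Col1a2, 35 through Cd79a and 2 through C1qa (a cell can be counted under more than 1 gene), and 68 of them had at most 1 UMI of each. At P11 they removed 9 of 10 cells, since 10 had met the other conditions and 1 was kept.

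The label was checked against its markers, of which Camp was not part of the rule. Camp, the cathelicidin precursor of the secondary granules, was found in 29 of 87 cells of the Mpo/Elane stage, 44 of 44 overlap cells and 115 of 115 cells of the Ngp stage. Prtn3, the primary granule protease proteinase 3, was found in 83, 44 and 24 of these cells. As references from the same library, mature neutrophils were taken as the 533 cells with at least 10 UMIs of Retnlg, and B-lineage cells as the 1578 cells with at least 3 UMIs of Cd79a, each with 0 UMIs of the other marker genes. Marker lists of B, T and NK, macrophage and mesenchymal cells were low in the members, while those of monocytes, basophils and eosinophils were not low in the Mpo/Elane stage. The 10 B cell markers summed to 108, 83.0 and 22.2 CPM in the Mpo/Elane stage, overlap and Ngp stage against 13131 CPM in B-lineage cells, with Cd79a at 0 by the rule. The 7 macrophage markers summed to 123, 107 and 49.0 CPM against 18404 CPM in the library's macrophages, and the 8 mesenchymal markers to 57.7, 55.3 and 77.5 CPM against 124028 CPM in its mesenchymal cells. The 6 T and NK cell markers summed to 1.24, 0 and 3.99 CPM, with Cd3e at 0 in all 3 groups. C1qa and Col1a2 were, like Cd79a, at 0 by the rule. The 12 monocyte genes summed to 2218, 1281 and 491 CPM, the 5 basophil and mast cell markers to 964, 9.22 and 2.28 CPM, and the 4 eosinophil markers to 240, 16.3 and 3.42 CPM. The part of these levels in the results was not tested.

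A sort against Cd45 would remove most leukocytes, and its gene Ptprc was present in the members. Ptprc stood at 77.5 CPM in the Mpo/Elane stage, 80.8 CPM in the overlap and 168 CPM in the Ngp stage, against 546 CPM in mature neutrophils. At 2000 UMIs per cell it was found in 17.9%, 15.9% and 30.7% of cells, and in 68.8% of mature neutrophils. The members thus measure immature granulocytes that passed the sort, not all that the tissue held.

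The granule genes lie on several chromosomes. Elane and Prtn3 are neighbours on chromosome 10, 3137 bases apart, Mpo is on chromosome 11 and Ctsg on chromosome 14, and Camp, Ngp and Ltf lie on chromosome 9, with 570351 bases between Camp and Ngp and 596279 bases between Ngp and Ltf (RefSeq on GRCm38.p6, the assembly also called mm10). As examples of both gene sets, the 250 bases before the start of the genes on chromosomes 9 and 10 are shown, read 5′ to 3′ on the strand of the gene, which is the minus strand for Camp and the plus strand for the others. In Ngp, Ltf and Camp, capitals mark matches to TTNNGNAA, a short form of the site of C/EBP factors, on either strand.
Ngp chr9:110419558-110419807: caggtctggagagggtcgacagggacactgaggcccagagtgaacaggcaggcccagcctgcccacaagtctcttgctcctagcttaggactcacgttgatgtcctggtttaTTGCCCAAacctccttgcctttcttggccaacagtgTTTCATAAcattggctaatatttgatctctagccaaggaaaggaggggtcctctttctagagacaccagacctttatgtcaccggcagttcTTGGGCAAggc
Ltf chr9:111019042-111019291: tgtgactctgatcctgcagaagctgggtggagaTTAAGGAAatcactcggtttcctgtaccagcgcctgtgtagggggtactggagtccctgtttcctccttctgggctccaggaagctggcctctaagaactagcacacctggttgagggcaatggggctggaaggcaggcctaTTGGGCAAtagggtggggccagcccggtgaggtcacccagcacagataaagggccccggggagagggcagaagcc
Camp chr9:109849457-109849706: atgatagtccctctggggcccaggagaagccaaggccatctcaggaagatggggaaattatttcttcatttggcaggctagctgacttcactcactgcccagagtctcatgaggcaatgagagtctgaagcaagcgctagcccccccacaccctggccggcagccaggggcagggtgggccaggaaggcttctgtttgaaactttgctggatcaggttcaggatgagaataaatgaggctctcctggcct
In Elane and Prtn3, capitals mark matches to GAGGAA, a core of the site of PU.1, on either strand.
Elane chr10:79886062-79886311: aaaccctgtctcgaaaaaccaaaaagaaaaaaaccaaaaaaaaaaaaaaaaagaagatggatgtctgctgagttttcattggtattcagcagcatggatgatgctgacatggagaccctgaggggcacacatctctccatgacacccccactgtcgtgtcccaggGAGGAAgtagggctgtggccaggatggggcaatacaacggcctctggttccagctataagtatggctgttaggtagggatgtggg
Prtn3 chr10:79879417-79879666: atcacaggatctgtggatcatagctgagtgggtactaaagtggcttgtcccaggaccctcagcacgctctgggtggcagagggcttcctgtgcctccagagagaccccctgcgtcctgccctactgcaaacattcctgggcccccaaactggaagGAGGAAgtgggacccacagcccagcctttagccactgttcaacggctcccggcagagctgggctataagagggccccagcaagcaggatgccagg

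The C/EBP form had 3 matches before Ngp, 2 before Ltf, 1 before Lcn2 and 0 before Camp, Elane, Prtn3, Mpo and Ctsg. The PU.1 form had 2 matches before Mpo and 1 each before Elane, Prtn3, Ctsg, Ltf and Lcn2 (that of Ltf is not in capitals above). The C/EBP form was found before 9 of the 13 secondary granule genes with a promoter in the table and before 3 of 8 primary granule genes. It was found in 36.9% of all 32851 promoters of the same length. The PU.1 form was found before 6 of the 8 primary and 6 of the 13 secondary granule genes, and in 23.2% of all promoters. The RUNX form TGTGGT was found before 2 of 8 and 3 of 13, and in 14.0% of all promoters. No base of the 5 promoters shown lay in a match to both the C/EBP and the PU.1 form. A match is a run of letters and not a bound site.

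The question of the stage comparison was how the gene content of the Mpo/Elane stage differed from that of the Ngp stage. The UMIs of all cells in a stage were added up, and a gene was compared if it had at least 50 UMIs over both. Of 5823 such genes, 1079 (18.5%) were at least 4-fold higher in the Mpo/Elane stage and 214 (3.68%) were at least 4-fold higher in the Ngp stage. This split rests partly on scale. S100a8, S100a9, Camp and Ngp made up 43.0% of all UMIs in the Ngp stage, 21.2% in the overlap and 0.928% in the Mpo/Elane stage. The share left for the sum of all other genes was therefore smallest in the Ngp stage. The median log2 ratio of all genes was 0.75, and with that median set to 0 the counts were 553 and 396. With totals taken without the primary, secondary and late granule lists, they were 486 and 485. Log2 ratios below are on the CPM scale, Mpo/Elane stage over Ngp stage, and are to be read against that median of 0.75.

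Depth and RNA content moved with the stages. The median cell had 29153 UMIs in the Mpo/Elane stage, 32753 in the overlap and 14522 in the Ngp stage, against 4352 in mature neutrophils. At 2000 UMIs per cell, the median cell had 895.5, 797.5, 630.5 and 622 detected genes in these 4 groups. Ribosomal protein genes took 33.6%, 20.9%, 6.25% and 3.74% of UMIs, and the median mitochondrial share was 3.08%, 2.20%, 0.756% and 0.296%. All these measures except the depth of the overlap thus went down in the same order from the Mpo/Elane stage to mature neutrophils, and their part in the results was not tested.

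Most primary granule genes were higher in the Mpo/Elane stage than in the Ngp stage, and the overlap had them too. The list summed to 24927 CPM in the Mpo/Elane stage, 21233 CPM in the overlap and 1656 CPM in the Ngp stage. Of the 9 listed, 7 were at least 4-fold higher in the Mpo/Elane stage, 0 were so in the Ngp stage, and the median log2 ratio was 4.62. Mpo and Elane are among the 7, and the rule held both under 3 UMIs per cell in the Ngp stage. The median was 6.90 without the highest doublet scores, and 1.33 with 2 genes past 4-fold when overlap cells were counted with the Ngp stage. Mpo (ENSMUSG00000009350), the enzyme that makes hypochlorous acid, stood at 5230 CPM in the Mpo/Elane stage, 3179 CPM in the overlap, 1.71 CPM in the Ngp stage and 1.72 CPM in mature neutrophils. Per cell it ran from 0 through a median of 33.2 to 163 UMIs per 10000 in the Mpo/Elane stage and from 0 through 0 to 2.37 in the Ngp stage. Mpo was part of the rule, as was Elane, neutrophil elastase, at 5627 and 6.27 CPM in the same stages. In the overlap Elane was at 114% of its level in the Mpo/Elane stage.

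The primary granule proteases outside the rule had the same direction. Prtn3 stood at 6663 CPM in the Mpo/Elane stage and 38.8 CPM in the Ngp stage, a log2 ratio of 7.42 (95% counting interval 7.08 to 7.79). Per cell it ran from 0 through a median of 40.5 to 168 UMIs per 10000 in the former and from 0 through 0 to 12.2 in the latter, so single cells overlapped although the sums were far apart. Ctsg, cathepsin G, stood at 3387 and 2.28 CPM, a log2 ratio of 10.54 (9.18 to 12.41). Ctsc, the dipeptidyl peptidase that activates these proteases, stood at 211 and 8.55 CPM.

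Not every gene of the primary granule list followed the proteases. Serpinb1a, an inhibitor of elastase-type proteases, went the other way, at 371 CPM in the Mpo/Elane stage, 1079 CPM in the overlap, 990 CPM in the Ngp stage and 332 CPM in mature neutrophils. Cd63, a granule membrane protein, stood at 467, 911, 343 and 243 CPM, highest in the overlap. Srgn, the proteoglycan serglycin that packs granule proteins, stood at 2033, 1588, 113 and 2135 CPM. It was thus at its lowest in the Ngp stage, found there in 44 of 115 cells against 86 of 87 in the Mpo/Elane stage, and was high in mature neutrophils. Selplg, a glycoprotein of leukocyte rolling, stood at 79.1, 32.6, 26.8 and 268 CPM and was also lower in the overlap and Ngp stage than at either end.

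Secondary granule genes went the opposite way, and by larger ratios. Of the 15 listed, 14 were at least 4-fold higher in the Ngp stage, 0 were so in the Mpo/Elane stage, and the median log2 ratio was -8.06. Ngp, from the rule, is among the 14, and its direction was set by how the stages were split. Hp, haptoglobin, was the gene that missed 4-fold, at 373 and 1456 CPM (log2 ratio -1.97). Ltf, lactoferrin, stood at 1.24 CPM in the Mpo/Elane stage and 5932 CPM in the Ngp stage, a log2 ratio of -12.23 (-14.51 to -10.68) that rests on 3 UMIs in the former. Per cell, Ltf ran from 0 through 0 to 0.876 UMIs per 10000 in the Mpo/Elane stage and from 16.6 through 60.7 to 120 in the Ngp stage, and the ranges did not overlap.

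Other secondary granule genes had low counts in part of the Mpo/Elane stage. Camp stood at 198 and 52885 CPM, with a log2 ratio of -8.06 (-8.19 to -7.93). Its range per 10000 UMIs was 0 to 77.3 in the Mpo/Elane stage and 178 to 859 in the Ngp stage, again apart. Lcn2, the iron-siderophore binder lipocalin 2, stood at 67.2 and 17985 CPM and Chil3, the chitinase-like protein Ym1, at 196 and 11066 CPM. Lyz2, lysozyme, stood at 2154 CPM in the Mpo/Elane stage and 14657 CPM in the Ngp stage, a log2 ratio of -2.77. Of its UMIs in the Mpo/Elane stage, 3674 were in 29 cells with Irf8 that are described below (4102 CPM) and 1542 in 49 other cells (1148 CPM).

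**Figure D2:**
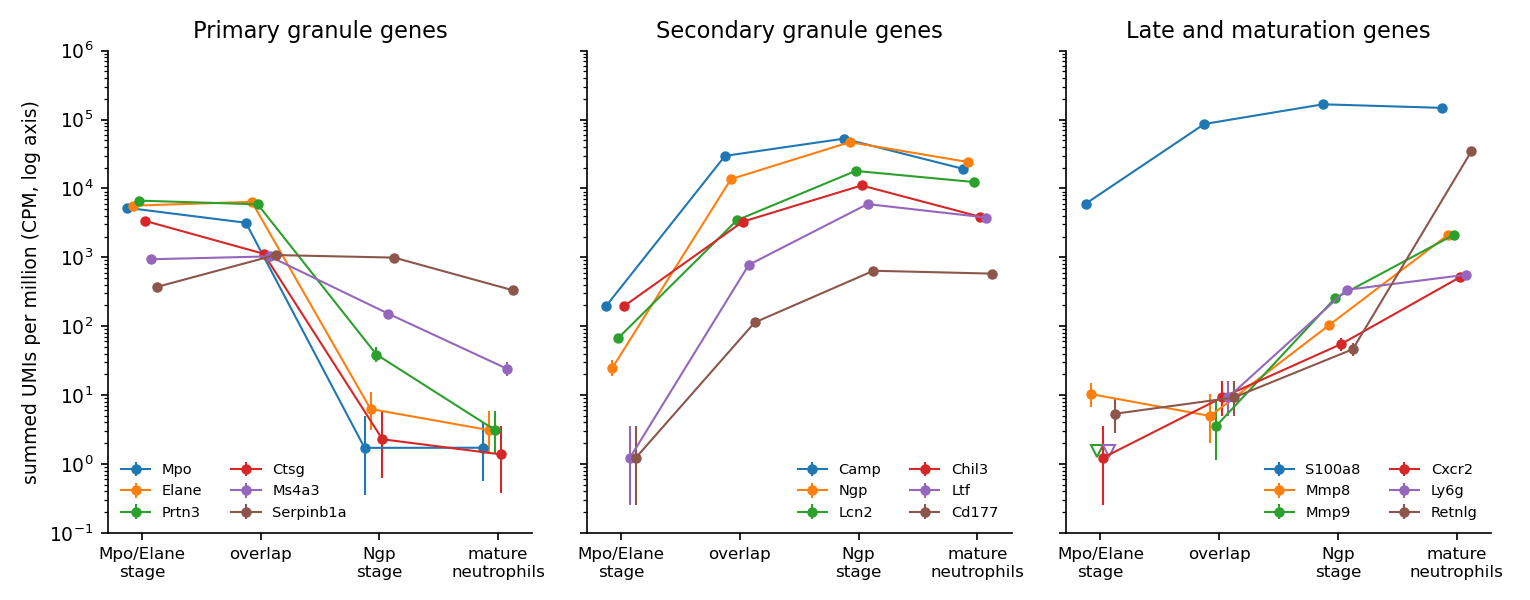
Summed level in CPM (log axis) of 6 primary granule, 6 secondary granule and 6 late or maturation genes in the Mpo/Elane stage (87 cells), the overlap (44), the Ngp stage (115) and mature neutrophils (533), with exact Poisson 95% intervals as bars; open triangles mark the upper limit of a count of 0. Mpo drops from 3179 CPM in the overlap to 1.71 CPM in the Ngp stage, Ltf climbs from 1.24 to 5932 CPM, and Mmp9 reaches 2117 CPM in mature neutrophils.

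Late genes split into those on in the Ngp stage and those still low. Of the 18 listed, 14 had enough UMIs to compare the stages, and 9 were at least 4-fold higher in the Ngp stage, with a median log2 ratio of -3.22. Retnlg, which the rule held at 2 UMIs or fewer per cell, is among the 9. S100a8 and S100a9, the subunits of calprotectin, stood at 166840 and 163242 CPM in the Ngp stage against 5989 and 3064 CPM in the Mpo/Elane stage. In the Mpo/Elane stage S100a8 was uneven, with a median of 1.73 and a highest value of 587 UMIs per 10000. Mmp9, gelatinase B, had 0 UMIs in the Mpo/Elane stage and 253 CPM in the Ngp stage, at least 205-fold higher when the 0 is set to 3 counts over the group, and Ly6g, the surface marker of mouse neutrophils, had 0 UMIs and 338 CPM.

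Against mature neutrophils the Ngp stage was lower in most late genes. Of 4747 genes with at least 50 UMIs over these 2 groups, 240 (5.06%) were at least 4-fold higher in the Ngp stage and 313 (6.59%) at least 4-fold higher in mature neutrophils, with a median log2 ratio of 0.10. Of the 18 late genes, 12 were at least 4-fold higher in mature neutrophils and 0 in the Ngp stage; Retnlg is among the 12 and defined that group. Mmp8, neutrophil collagenase, stood at 103 CPM in the Ngp stage and 2099 CPM in mature neutrophils. Cxcr2, the receptor for neutrophil-attracting chemokines, stood at 54.7 and 511 CPM. Of the 15 secondary granule genes, 0 passed 4-fold in either direction between these groups, so their RNA was still present in the mature cells, with Ngp at 47080 and 24162 CPM.

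The overlap was chosen to hold genes of both stages, so that is no result, and its levels of Ngp, Mpo and Elane are a description. For 1262 of the 1293 genes past 4-fold between the stages (97.6%), the level in the overlap lay between those of the stages. These genes were picked for a wide gap, and any mixture of the stages would also lie within it. The share therefore cannot tell an intermediate state from a mixture, and whether the overlap is such a state was not tested. Outside the rule genes, the level in the overlap as a share of that in the Ngp stage was 74.7% for Hp, 70.2% for Pglyrp1, a peptidoglycan-binding protein, 56.2% for Camp, 51.7% for S100a8, 29.8% for Chil3, 29.2% for Lyz2, 19.2% for Lcn2, 13.1% for Ltf and 2.73% for Ly6g. As a share of the level in the Mpo/Elane stage, it was 195% for Cd63, 110% for Ms4a3, a membrane protein of granulocyte progenitors, 88.3% for Prtn3, 33.3% for Ctsg and 16.8% for Ctsc. Neighbours in these lists were not all apart within counting error of the overlap, as the intervals of Hp (71.0 to 78.5) and Pglyrp1 (67.5 to 73.0) overlapped, and those of Chil3 (29.0 to 30.7) and Lyz2 (28.5 to 29.9). Camp (55.7 to 56.8), Lcn2 (18.7 to 19.8) and Ltf (12.4 to 13.9) did not overlap.

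Overlap cells were also described by their Ngp count, a rule gene, in ranges chosen after the values were seen. In the 11 cells with 10 to 99 Ngp UMIs, Camp was in 11 cells with 3521 UMIs and Ltf in 3 cells with 4 UMIs, while the larger of Mpo and Elane ran from 258 to 574 UMIs. In the 18 cells with 100 to 499 Ngp UMIs, Ltf was in 8 cells and stood at 178 CPM, and the median of the larger of Mpo and Elane was 230.5 UMIs. In the 15 cells with 500 or more, Ltf was in 15 cells at 2171 CPM and that median was 14 UMIs. Mpo thus stood at 5811, 3628 and 402 CPM over the 3 ranges and Camp at 9130, 26127 and 51609 CPM. In the range with the highest summed Mpo, Camp was in all 11 cells and Ltf stood at 10.4 CPM. All overlap cells had at least 10 UMIs of Ngp by the rule, so cells with Mpo but less Ngp are not covered.

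Doublets, droplets that hold 2 cells, can also carry both gene sets. Scrublet's automatic threshold marked 1 cell of the library and was taken as not working. Removal of the 233 highest scores took out 6 of the 44 overlap cells (13.6%), 1 of the 87 cells of the Mpo/Elane stage and 2 of the 115 cells of the Ngp stage. The part of doublets in the overlap was not tested beyond this removal.

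Of 11 myeloid transcription factors, 5 were at least 4-fold higher in the Mpo/Elane stage and 1 in the Ngp stage. Without the cells with Irf8 or with basophil or eosinophil genes described below, 1 was higher in the Mpo/Elane stage and 1 in the Ngp stage. Irf8 is 1 of the listed factors and chose cells left out, so its loss from the count was set in advance. Over all genes, 741 of 4706 compared were then at least 4-fold higher in the Mpo/Elane stage, against 1079 of 5823 before. The factor higher in the Ngp stage was Cebpe, at 133, 547, 950 and 520 CPM from the Mpo/Elane stage to mature neutrophils. At least 2 UMIs of Cebpe were found in 43 of 87, 44 of 44 and 113 of 115 cells of the 3 member groups. The 5 others were Irf8, which directs monocytes and dendritic cells (63.0, 6.38 and 0 CPM), Cebpa (44.1, 15.6 and 1.71 CPM), Myb (196, 46.8 and 18.2 CPM), Myc (32.96, 7.09 and 0.570 CPM) and Klf4 (47.4, 26.2 and 3.42 CPM). Spi1, which encodes PU.1, differed by less than 4-fold in the other direction, at 249, 348 and 450 CPM, and Gfi1, a repressor needed for neutrophils, stood at 25.1, 17.0 and 9.69 CPM.

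Progenitor genes were seen in the Mpo/Elane stage, though at low counts. Of 12 listed, 6 could be compared, and 5 were at least 4-fold higher in the Mpo/Elane stage, against 18.5% of all genes compared. Cd34, a surface protein of progenitors, was in 38 of 87 cells there and in 0 of 115 cells of the Ngp stage. It was uneven over the subgroups described below. Cd34 was in 20 of 29 cells with Irf8, 5 of 9 with basophil or eosinophil genes and 13 of the 49 others. Kit was in 8, 4 and 23 cells of these subgroups. Kit, the stem cell factor receptor, stood at 34.2 and 13.1 CPM and did not reach 4-fold. Part of the cells of the Mpo/Elane stage thus had progenitor genes, not all of them of the neutrophil kind. In the Ngp stage the listed genes were at or near 0 apart from Kit, Myb and Cd27.

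Genes for making ribosomes and folding secreted proteins were higher in the Mpo/Elane stage. All 12 ribosome biogenesis genes were at least 4-fold higher there, with a median log2 ratio of 3.66. Npm1, nucleophosmin, stood at 2468, 737, 149 and 93.8 CPM from the Mpo/Elane stage to mature neutrophils, and Fbl, fibrillarin, at 245, 73.7, 5.70 and 5.84 CPM. Of 12 chaperones of the endoplasmic reticulum, 11 were at least 4-fold higher, with a median log2 ratio of 2.51; Calr, calreticulin, which takes part in folding of myeloperoxidase, stood at 1475, 545, 69.0 and 70.1 CPM. With the median of all genes set to 0, the counts were 9 of 12 and 5 of 12, since Hspa5, Hsp90b1 and others lay close to the limit.

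**Figure D3:**
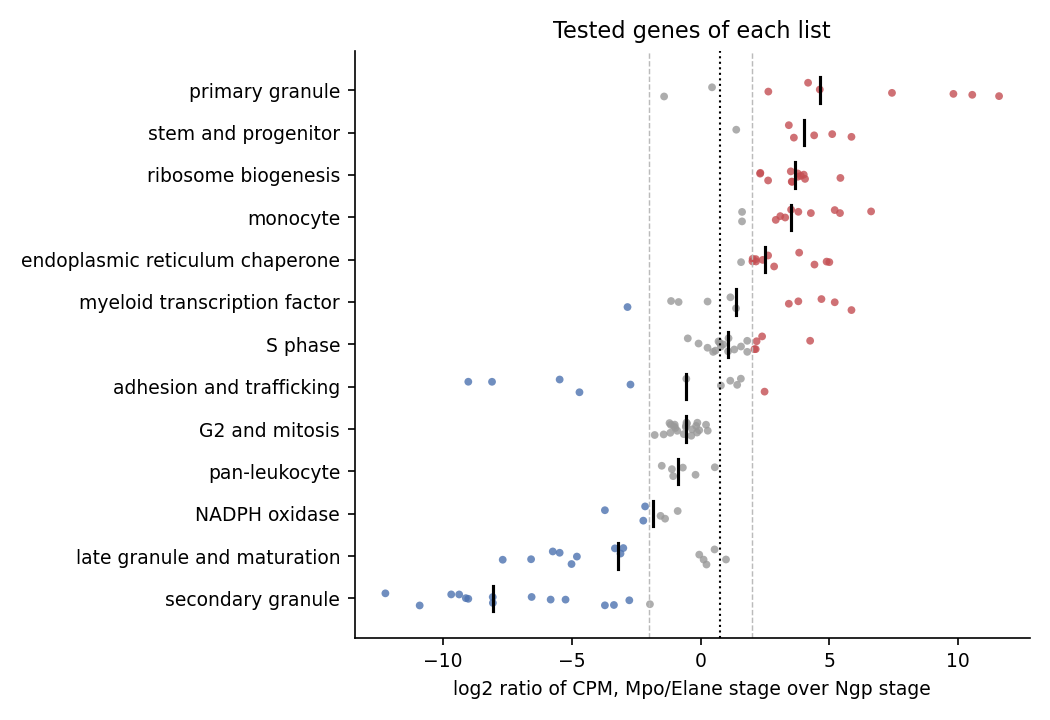
Each point is a tested gene of a list, placed by its log2 ratio of CPM, Mpo/Elane stage over Ngp stage; red and blue points are past 4-fold (dashed lines), black bars are list medians, and the dotted line is the median of all 5823 genes at 0.75. Among the lists drawn, medians run from -8.06 for secondary granule genes to 4.62 for primary granule genes. On this scale no gene of G2 and mitosis is past 4-fold. Lists not drawn include the basophil and mast cell markers (median 7.80, 3 genes compared) and the eosinophil markers (8.46, 1 gene compared).

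Host defence and migration genes leaned to the Ngp stage. Of the 6 subunits of the NADPH oxidase, which makes superoxide, 3 were at least 4-fold higher there and 0 lower. Cybb, its membrane subunit, stood at 106 and 1383 CPM (Cybb is also on the secondary granule list), Ncf1 at 78.3 and 365 CPM and Ncf4 at 134 and 594 CPM. Of the 11 adhesion and trafficking genes, 5 were at least 4-fold higher in the Ngp stage and 1, the integrin subunit Itga4, in the Mpo/Elane stage. Itgam, the alpha chain of the integrin Mac-1, stood at 9.47, 97.1, 246 and 482 CPM from the Mpo/Elane stage to mature neutrophils. Cxcr4, the receptor that holds neutrophils in the marrow, stood at 182, 141, 106 and 255 CPM and did not reach 4-fold between the stages.

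Cell cycle genes were present in all 3 member groups. At 2000 UMIs per cell, cells counted as cycling, with a UMI for 2 or more of 42 S phase and G2 and mitosis genes, made up 100% of the Mpo/Elane stage (95.7 to 100), 100% of the overlap (92.0 to 100) and 81.6% of the Ngp stage (73.2 to 88.2). Unthinned, these shares were 100%, 100% and 98.3%. The rule had a high background, since 51.8% of mature neutrophils, cells that no longer divide, also met it. Hmgb2, Cks2 and Slbp were the broadly expressed genes among the 42, for example Hmgb2 at 1666 CPM and Cks2 at 410 CPM in mature neutrophils. Without these 3, in an alternative added after the data were seen, the shares were 96.4% (89.9 to 99.3), 100% (92.0 to 100), 66.7% (57.2 to 75.2) and, in mature neutrophils, 4.15% (2.59 to 6.27). The low last share follows in part from how the 3 genes were picked.

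S phase and mitotic genes were compared separately. Of the 20 S phase genes, 5 were at least 4-fold higher in the Mpo/Elane stage, with a median log2 ratio of 1.07. The share is near the 18.5% of all genes, and the count was 1 with the median of all genes set to 0, with totals without the 3 granule lists and with 10 CPM added. Mcm6, a subunit of the replicative helicase, stood at 243, 189, 55.3 and 10.7 CPM from the Mpo/Elane stage to mature neutrophils. Of the 22 G2 and mitosis genes, 0 passed 4-fold in either direction on the CPM scale, with a median of -0.57. With the median of all genes set to 0, 2 of them were at least 4-fold higher in the Ngp stage. With totals without the 3 granule lists, 5 were. Top2a, DNA topoisomerase II alpha, stood at 316, 418, 356 and 61.8 CPM and Mki67 at 125, 201, 256 and 51.5 CPM. With the median of all genes set to 0, the list medians were 0.33 and -1.32, so S phase genes kept a positive sign and mitotic genes a negative one. Against mature neutrophils, 13 of 16 S phase genes compared and 16 of 21 G2 and mitosis genes were at least 4-fold higher in the Ngp stage.

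Within the Ngp stage, Top2a was lower in cells with more Ngp. The 115 cells were split into 4 groups of 29, 29, 29 and 28 cells by their Ngp UMIs per 10000, which ran from 193 to 798. Top2a stood at 488 CPM (422 to 560) in the lowest group, then 413, 294 and 221 CPM (177 to 272), and Mki67 at 291, 281, 285 and 155 CPM. Over the same groups Ltf stood at 4825, 5490, 6233 and 7299 CPM and Lyz2 at 10839, 14494, 14950 and 18516 CPM, while Mmp8 (60.7, 129, 57.4 and 167 CPM) had no steady order. Cycling cells by the 42-gene rule were 85.7%, 96.6%, 86.2% and 71.4%, with intervals that overlapped. The 21 cells that did not meet the cycling rule had 525 CPM of Mmp9 against 218 CPM in the 93 that did, and 120 against 46.4 CPM of Cxcr2, with median depths of 9333 and 16222 UMIs.

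**Figure D4:**
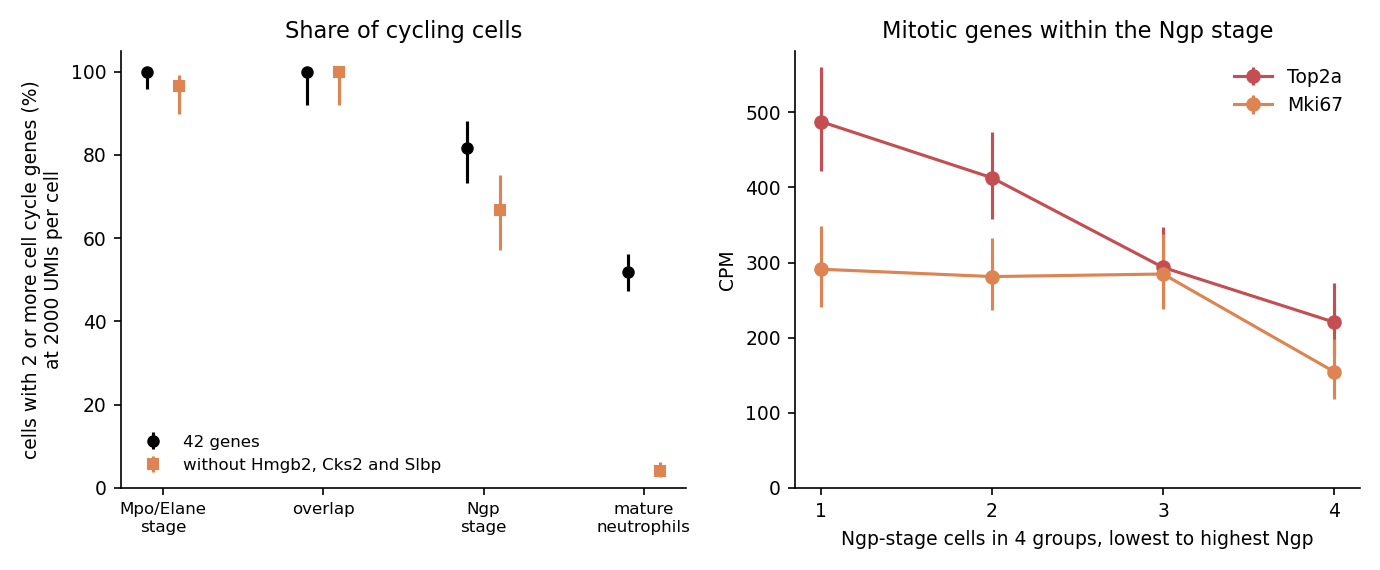
Left, share of cells counted as cycling at 2000 UMIs per cell, with the 42-gene lists (circles) and without Hmgb2, Cks2 and Slbp (squares), bars being exact binomial 95% intervals; right, CPM of Top2a and Mki67 in 4 groups of Ngp-stage cells ordered by Ngp, with exact Poisson 95% intervals. With the shorter lists, whose genes were dropped for their level in mature neutrophils, the Ngp stage is at 66.7% and mature neutrophils at 4.15%, and Top2a goes from 488 to 221 CPM across the groups.

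The Mpo/Elane stage was not uniform. Of its 87 cells, 60 had at least 3 UMIs of both Mpo and Elane, 19 of Mpo only and 8 of Elane only. Monocyte genes made up part of its difference from the Ngp stage, with 9 of the 11 that could be compared at least 4-fold higher in the Mpo/Elane stage. When cells with Irf8, or with genes of basophils and eosinophils, were left out, 4 monocyte genes passed 4-fold. Irf8 is on this list and chose cells left out, and 4706 genes could then be compared against 5823 before. The fall in the count was thus partly set in advance. Subgroups were described by cutoffs chosen after the values were seen, and genes used for a cutoff are a description.

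In 29 cells there were at least 2 UMIs of Irf8. Monocyte genes were found in most of them. Ly86, a partner of a Toll-like receptor homologue, was in 27 of 29 cells against 7 of 49 of the cells in neither subgroup, F13a1, coagulation factor XIII, in 27 against 17, Csf1r, the receptor for the macrophage growth factor M-CSF, in 21 against 6, and Ccr2, a monocyte chemokine receptor, in 21 against 6. These cell counts were not thinned to equal depth. The lowest depth was 10976 UMIs in the Irf8 cells and 1221 in the other 49, with medians of 30981 and 28801. The part of depth in the counts was not tested. Elane stood at 2979 CPM in the Irf8 cells and 7808 CPM in the other 49, Cebpe at 59.2 and 176 CPM, and Gfi1 at 5.58 and 37.2 CPM. Lyz2 was higher in the Irf8 cells, at 4102 and 1148 CPM. Granule and monocyte genes were thus found in the same cells. Of the 29, 10 also had at least 2 UMIs of Cebpe. At least 2 UMIs of Irf8 were found in 2 overlap cells and in 0 cells of the Ngp stage.

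In 9 other cells there were at least 3 UMIs of Mcpt8 or Prss34, proteases of basophils, or of Prg2, the major basic protein of eosinophils. The basophil proteases marked 5 of them and Prg2 the other 4, with 0 cells in both. Among the 9, Cpa3, carboxypeptidase of mast cells and basophils, was in 5 cells and Epx, eosinophil peroxidase, in 4. In the 49 cells of neither subgroup, Cpa3 was in 5 cells with 26 UMIs, Mcpt8 in 18 with 28 UMIs and Epx in 0. Gata2, a factor of basophil and mast cell precursors, was in 4 of 9 and Mpo in 9 of 9, while Irf8, Csf1r and Ly86 were in 0. The rule's Mpo and Elane condition therefore also took early cells with genes of other granulocytes and of monocytes.

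**Figure D5:**
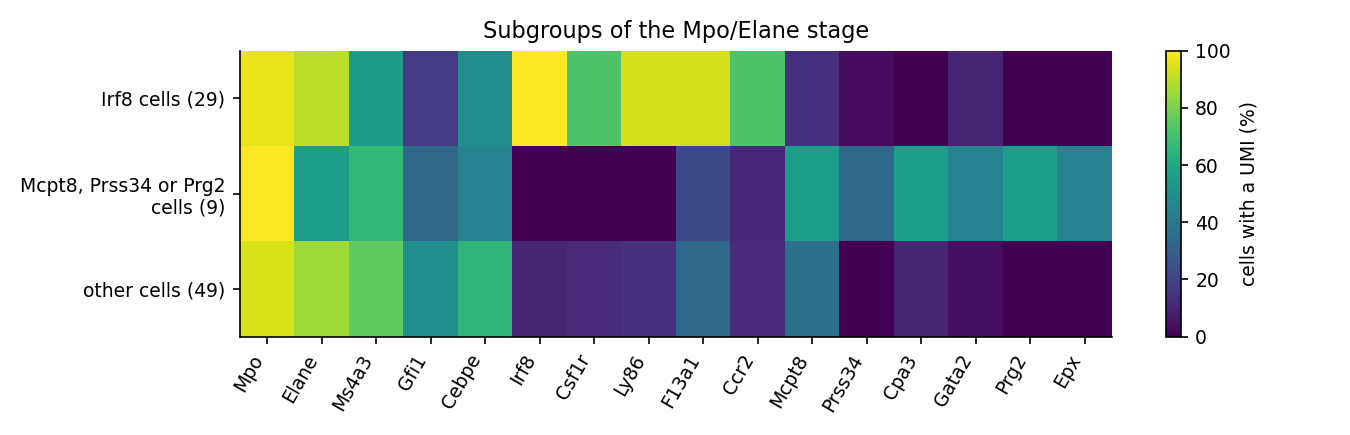
Percent of cells with a UMI of each gene (colour scale 0 to 100) in the 29 Irf8 cells, the 9 Mcpt8, Prss34 or Prg2 cells and the 49 other cells of the Mpo/Elane stage. Mpo is in nearly all cells of each, monocyte genes such as Ly86 are mostly in the Irf8 cells (27 of 29), and Epx is in 4 of the 9 cells and in 0 of the others.

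Outside the lists, the 12 genes with the largest ratio in each direction were taken, among those with a UMI in at least 25% of the cells of the higher stage. Higher in the Mpo/Elane stage were Phgdh, Bzw2, Cd48, C1qbp, Srm, Cst7, Parp1, Ccnd2, Dmkn, Lgals1, Vat1 and Prdx4, with log2 ratios from 6.45 to 7.66. Phgdh, the entry enzyme of serine synthesis, stood at 230 and 1.14 CPM, Srm, spermidine synthase, at 158 and 1.14 CPM, and Lgals1, galectin 1, at 950 and 9.12 CPM. Several of the 12 rest on 1 UMI in the Ngp stage, so their ratios have wide intervals, as for Ccnd2, a G1 cyclin, with 6.86 (4.36 to 12.17).

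Higher in the Ngp stage were BC100530, Stfa2, Chil1, Olfml2b, Stfa2l1, Stfa3, Asprv1, AA467197, Inhba, Crispld2, Tesc and Slfn1. Their log2 ratios ran from -9.28 to -6.30, and all but AA467197, with 0 UMIs, had at least 1 UMI in the Mpo/Elane stage. Stfa2, Stfa2l1, Stfa3 and BC100530 belong to the stefin A family of protease inhibitors, whose near-identical copies can share reads, so their single levels are uncertain. Chil1, a chitinase-like protein, stood at 0.824, 61.0, 289 and 364 CPM from the Mpo/Elane stage to mature neutrophils. Inhba, the activin A subunit, and Olfml2b were higher in the Ngp stage than in mature neutrophils, at 137 and 43.6 CPM and at 135 and 55.3 CPM, while Asprv1, an aspartic protease, went from 88.9 to 1425 CPM.

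The other ages held few or no such cells. At P11 the whole library had 3060 Ngp and 785 Mpo UMIs in cells that passed the filters, against 275262 and 25318 at P18 and 2 and 11 at P56. Median depth per cell was 13518 UMIs at P11, 7370 at P18 and 6146 at P56, and the libraries held 44104990, 53725468 and 40082499 UMIs in all. Cell barcodes shared between libraries numbered 4 for P11 and P18 and 9 for P18 and P56, and 1 member had such a barcode. Age, pool, sort and library cannot be told apart in these differences. On the Gli1-lineage plates, Ngp, Camp, S100a8 and S100a9 were at 0 counts in all 7, and Mpo and Elane were found only at P21.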

How the data were processed

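The authors deposited unnormalised counts, a whole number for each gene and barcode in 3 droplet libraries and for each gene and well on 7 plates, with genome build mm10 per the submitters' processing notes. The matrices were written by software version 3.1.0 (P11 and P18) and 3.0.2 (P56), per the file headers; aligner and annotation are not given in the sources used here. The droplet files list 31053 genes, and P18 held 53725468 UMIs.

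Members, stages and gene lists (219 genes in 23 lists) were chosen with earlier results of these data known. UMIs were summed over cells and scaled to CPM, with exact Poisson 95% intervals, and shares have exact Clopper-Pearson intervals. Stages were compared by the ratio of CPM over genes with at least 50 UMIs; a count of 0 was set to 3 counts, and 4-fold was the limit. Genes named are those of the lists and the 12 largest ratios in each direction with a UMI in at least 25% of cells. Cycling shares used 2000 UMIs drawn from each cell, which left out 3, 0 and 1 cells of the Mpo/Elane stage, overlap and Ngp stage and 27 mature neutrophils. With 1 library per age there was no test and no p-value. Scripts were tested on simulated data. Doublets were scored with scrublet in scanpy 1.11.5. Promoter sequences are from RefSeq on GRCm38.p6. The other steps used Python 3.11.15, numpy 2.4.6 and scipy 1.17.1.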

Additional observations from a re-analysis of the deposited data

Results flagged for a closer look

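A signal lay outside the droplet libraries. The Gli1-lineage plate at P21 held 95 counts of Ngp, Camp, Mpo and Elane together, 71 of Mpo and 24 of Elane, in 21 of 96 wells, while the other 6 plates held 0. Of these, 50 Mpo and 19 Elane counts were in 1 well, which also had 32 of Prtn3 and 14 of Ctsg among 6127 counts. That well had 14 counts of Col1a2, against 8410 over the other wells. No other well had more than 3 of Mpo or 1 of Elane. Ngp, Camp, S100a8 and Ptprc were at 0 on the plate.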

How the results depend on the processing

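No paired analysis was possible because the stages come from the same library, with no replicate of any age. With Retnlg at 0 UMIs the members were 167 and the Ngp stage 58 cells, and with up to 1 UMI of each exclusion gene, added after the data were seen, they were 314, with 119 cells in the Mpo/Elane stage and 138 in the Ngp stage. Other cell filters, higher Ngp, Mpo and Elane minimums and doublet removal gave 234 to 248 members. Genes at least 4-fold higher in the Mpo/Elane and Ngp stages were 442 and 126 with 10 CPM added, 390 and 93 with at least 200 UMIs, 2453 and 522 at 2-fold, and 1775 in the Mpo/Elane stage with at least 20 UMIs. They were 424 in the Mpo/Elane stage with overlap cells counted with the Ngp stage, and 122 in the Ngp stage with overlap cells counted with the Mpo/Elane stage. Another pair of scalings was added after the data were seen, with 553 and 396 for the median set to 0, and 486 and 485 without the granule lists. Cycling shares at 1000 UMIs per cell were 95.4% and 73.0% in the Mpo/Elane and Ngp stages. In the Ngp stage they were 98.3% without thinning, 70.2% with at least 3 genes and 66.7% without Hmgb2, Cks2 and Slbp. Where not set by construction, the cause was not tested. Of 1 library, depth limits genes with few UMIs in a stage.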
